A study of Danio rerio with 2 samples.

Results

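The genes described here encode the transcription factor Atf4 and other factors and enzymes of the integrated stress response. The set had 8 genes, namely atf4a, atf4b, atf3, ddit3, chac1, asns, trib3 and xbp1. Each was looked up as a probe set that the platform annotation ties to that gene alone, and the set was chosen on the ratio between the same arrays that are described below. Of the 8 genes, 6 had a probe set among those used here, with 8 probe sets in all out of 15502, and these 6 were among the 5968 measured genes of the series. None of those used here carried the name of ddit3, the pro-death factor also known as Chop, or of trib3, a pseudokinase that restrains Atf4 in mammals.

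The series compared whole zebrafish embryos at 24 hours after fertilization on Affymetrix expression arrays, with 1 array for each of 2 groups, to learn which genes depend on a C1q-like gene. Embryos of the first group had been injected with a morpholino, a synthetic antisense oligomer that blocks a chosen transcript, directed at that gene, and are called morphants below. Those of the second had been injected with a control morpholino that differs from it by 5 mismatches, and both received about 5 ng per embryo. Strain, sex and the number of embryos behind each array are not given in the sources used here, and embryos of both groups were raised at the same temperature and carried no other stated change.

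In the integrated stress response, kinases that sense unfolded protein, amino acid shortage, viral RNA or heme shortage phosphorylate the initiation factor eIF2. General translation falls, while the transcript of Atf4 is translated more, and Atf4 then turns on genes for amino acid supply, redox balance and, under lasting stress, cell death. The unfolded protein response shares the kinase Perk with this pathway and adds the Ire1 and Atf6 arms, of which Xbp1 is the effector of the first. Atf4 is controlled largely through its translation, so an array, which reads RNA, does not measure its activity.

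The arrays gave similar signal levels, with a median of 34.7 for the morphants and 32.0 for the controls. A floor of 33.3, the median signal of both arrays together, replaced any lower value before the log2 ratio of morphant over control was taken, and a gene was measured if at least 1 array reached the floor. With 1 array per group there was no replicate error and no test, so "higher" and "lower" describe these 2 arrays only. Hybridization and scanning fell on a different day for each array, so day and treatment cannot be told apart. Over all measured genes the median log2 ratio was 0.01, and the 5th and 95th percentiles were -0.94 and 0.77. Some markers of embryonic tissues were bright on both arrays. The muscle actin gene actc1b read 12436.9 and 10428.5, the embryonic globin gene hbae3 15610.7 and 9913.6, and the epidermal keratin gene krt4 17052.4 and 8631.3, each with the morphants first, as in all pairs of signals below. Others were dim, such as the muscle factor gene myod1 at 49.5 and 25.9. Of 12 measured muscle markers 9 were higher and 3 lower, and of 7 blood markers 4 were higher and 3 lower. Of all measured genes 50.9% were higher and 48.7% lower. After quantile or lowess scaling 3 of the muscle and 3 of the blood markers were higher. Among the blood markers gata1a read 77.7 and 34.8, or 2.23-fold higher, and slc4a1a 146.2 and 293.9, or 2.01-fold lower. The level of the injected target could not be examined, because its name was attached to none of the probe sets used here.

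The 6 members went in both directions. Lower in the morphants were atf4b, chac1 and atf4a, and higher were atf3, asns and xbp1. At least 2-fold lower were 2 members, against 4.09% of all measured genes, and at least 2-fold higher was none, against 1.68%. Because the members were chosen on this ratio, their counts, ranks and places among all genes are a description and nothing is read from them.

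The zebrafish genome holds a pair of Atf4 genes, and both were lower in the morphants, by unlike amounts whose difference could not be tested. The gene atf4b (Entrez gene 556410) read 83.3 in the morphants and 228.0 in the controls. Its log2 ratio was -1.45, a 2.74-fold lower signal, the 58th lowest among the 5968 measured genes. The other copy, atf4a (Entrez gene 406514), read 420.7 and 550.8, a log2 ratio of -0.39. Of the measured genes 23.0% had a log2 ratio as low as that of atf4a or lower, and atf4b lay below the 5th percentile. These places are a description only, since the set was chosen on this ratio. Levels of the copies are not compared with each other, since probe sets differ in brightness. Each copy was read by a single probe set, so neither value has a second reading on the array.

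The lowest member was chac1 (Entrez gene 563855), which encodes an enzyme that breaks down glutathione and is a target of Atf4 in mammals. Its signals were 95.3 in the morphants and 269.2 in the controls. The log2 ratio was -1.50, a 2.82-fold lower signal and the 49th lowest of all measured genes. The second probe set of chac1 read 3.8 and 0.6, far below the floor on both arrays, so it gives no ratio and no check of the first. The ratios of chac1 and atf4b differed by little, and both had control signals well above the floor.

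**Figure D1:**
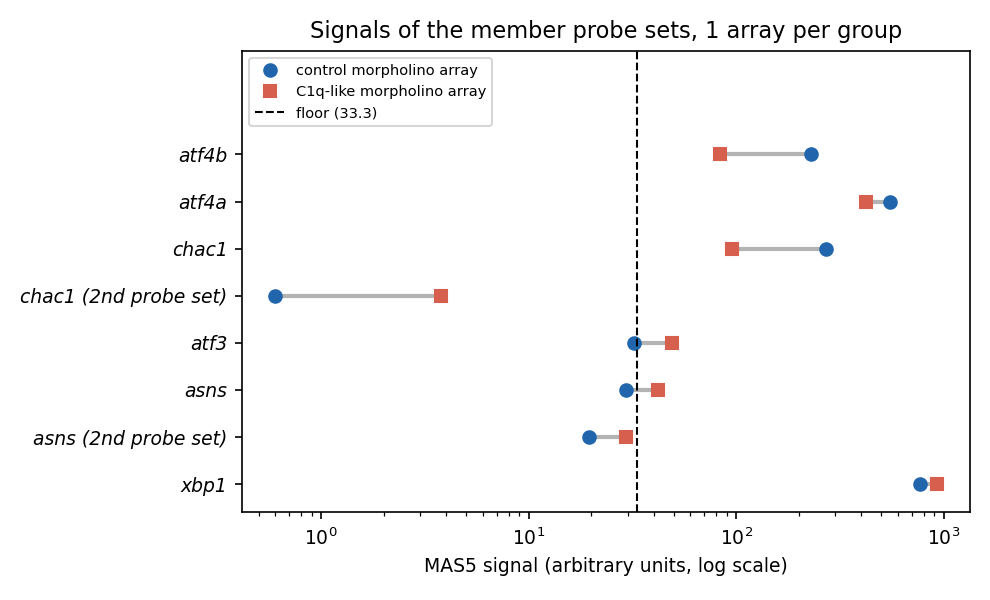
MAS5 signal (arbitrary units, log scale) of the 8 member probe sets on the control morpholino array (circles) and the C1q-like morpholino array (squares), joined by a line, with the floor of 33.3 dashed; there is 1 array per group and no error bar. The probe sets of atf4b and chac1 above the floor moved from 228.0 and 269.2 to 83.3 and 95.3, while atf3 and asns lay close to the floor on both arrays.

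The signal level at which a gene is read bears on these ratios. Measured genes were divided by mean signal into 3 classes of equal size, and atf4b and chac1 fell in the middle one, with mean signals between 59.4 and 164.1. In that class 6.69% of 1989 genes were at least 2-fold lower, compared with 2.56% in the dimmest and 3.02% in the brightest. The 5th percentile of the middle class was -1.11, and atf4b and chac1 lay below it, a description only, since the set was chosen on this ratio. The genes atf4a and xbp1 were in the brightest class, whose 5th and 95th percentiles were -0.87 and 0.73, and both lay between them.

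The transcription factor gene atf3 (Entrez gene 393939), a stress-induced partner and target of Atf4 in mammals, was dim. It read 49.2 in the morphants and 32.1, below the floor, in the controls, so its log2 ratio of 0.56 is a lower bound. The ratio of the signals as deposited was 1.53. Because the control signal lay below the floor, its rank among the measured genes is not given.

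For asns (Entrez gene 394138), the enzyme that makes asparagine and the classic amino acid target of Atf4 in mammals, neither probe set was clearly above the floor. The brighter one read 42.1 and 29.5, a log2 ratio of at least 0.34. The other read 29.4 and 19.6, below the floor on both arrays. The second probe set thus gives no ratio, and the first was read close to the floor on both arrays, where signals are unreliable.

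The brightest member was xbp1 (Entrez gene 140614), whose RNA is cut by Ire1 to give the active form of the factor. It read 923.3 in the morphants and 766.4 in the controls, a log2 ratio of 0.27. The deposited signal is 1 value per probe set and does not separate the cut from the uncut form. Its ratio was the 1722nd highest of all measured genes.

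**Figure D2:**
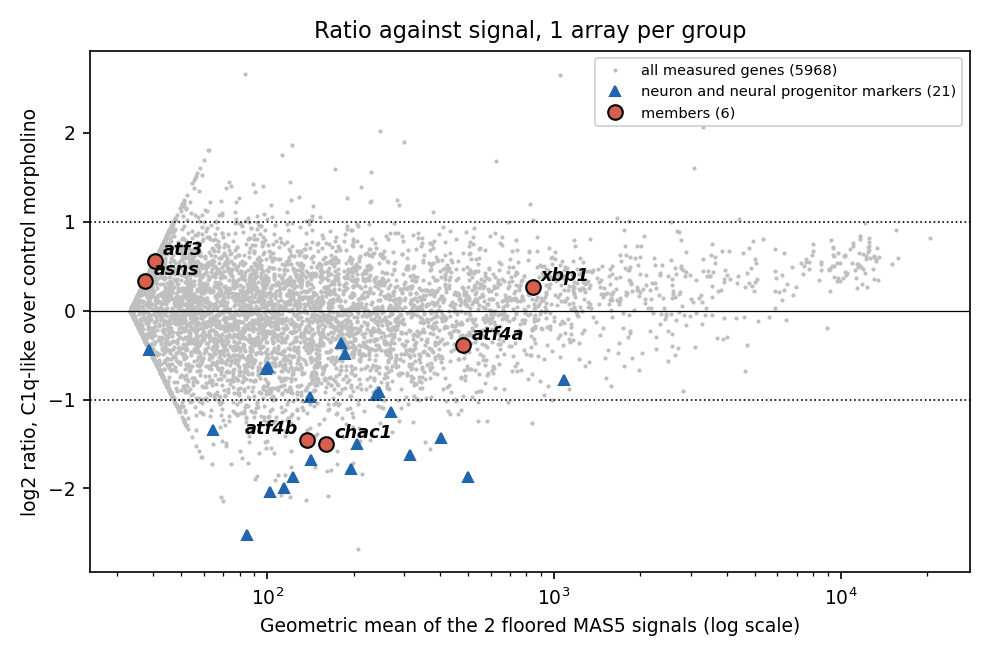
Log2 ratio of C1q-like over control morpholino against the geometric mean of both floored signals (log scale) for the 5968 measured genes (grey points), the 21 measured neuron and neural progenitor markers (triangles) and the 6 members (circles); dotted lines mark 2-fold. The genes atf4b and chac1 lie at -1.45 and -1.50 among the neural markers, and the other members are drawn between -0.39 and 0.56, with atf3 and asns at their lower bounds.

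Markers of neural cells differed in the same direction as atf4b and chac1. By their brightest probe sets all 21 measured markers of neurons and neural progenitors were lower in the morphants, against 48.7% of all measured genes. Their log2 ratios ran from -2.53 to -0.36 with a median of -1.35, and 12 were at least 2-fold lower, against 4.09%. Dimmer measured probe sets went the other way for elavl3 (0.58), sox3 (0.63), dlb (0.48), tubb5 (0.07) and stmn1b (0.06). As a mean over probe sets the median was -0.95 and 9 were at least 2-fold lower. Their summed signal was 3183.9 and 7526.5, and none was listed at 0. The part of neural cells in the values of atf4b and chac1 was not tested. In whole embryos, fewer cells of a type and less RNA per cell cannot be told apart. Of 11 measured targets of p53, the DNA damage factor, 8 were higher and 3 lower, against 50.9% and 48.7% of all measured genes. Among the higher ones bbc3, casp8 and fas had control signals below the floor. At least 2-fold higher were 5, against 1.68% of all measured genes. The summed signals were 10639.6 and 2625.8, of which most came from ccng1, at 6768.9 and 1615.0, and rps27l, at 2630.1 and 417.7. Epidermal genes had summed signals of 35548.1 and 19642.7, and 7 of 9 measured were higher, against 50.9% of all measured genes. Their part in the members' values was likewise not tested.

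Upstream of Atf4, a list built around eIF2, its kinases, its exchange factor eIF2B and its phosphatase had 17 measured genes. It also held nck1a, nck1b, dnajc3a and dnajc3b, which belong to none of these classes. Their log2 ratios were 0.17, -0.28, 0.06 and 0.30, and dnajc3a and dnajc3b count again in the Ire1 and Atf6 list below. Of the 17, 8 were above and 8 below a ratio of 1, and none differed by 2-fold. This even split thus rests in part on genes outside the named classes. The median log2 ratio of the list was 0.00 against 0.01 for all measured genes. The lowest was eif2s1a, which encodes a copy of the eIF2 subunit that the kinases phosphorylate. It read 301.2 in the morphants and 555.0 in the controls, a log2 ratio of -0.88. That lay just below the 5th percentile of the brightest signal class, -0.87, which holds it, but above that of all measured genes, -0.94. The other copy, eif2s1b, read 890.0 and 722.4, or 0.30 higher on the log2 scale. As with the Atf4 pair, the copies of one gene thus gave unlike ratios.

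The kinase gene eif2ak3, which encodes Perk, was near the floor, with signals of 30.8 and 38.3. Of the 5 eIF2B subunit genes, 3 were above a ratio of 1, against 50.9% of all measured genes. The highest were eif2b3 and eif2b2, at log2 ratios of 0.40 and 0.37. All 4 measured phosphatase genes were below a ratio of 1, against 48.7% of all measured genes, although 1 of them lay above it after quantile or lowess scaling. Small differences were seen for ppp1caa, ppp1cb and ppp1cab, at -0.08, -0.27 and -0.32. The remaining gene was ppp1r15a, encoding the stress-induced subunit Gadd34 that returns eIF2 to its active state and is itself an Atf4 target in mammals. Its brightest probe set read 60.8 and 96.0, a log2 ratio of -0.66, and the other measured ones gave -0.98 and 0.10, so the direction was not shared by all 3. With the floor at the 75th percentile of signals its log2 ratio was -0.04. The subgroups named by role, here and below, were formed after the values had been seen and cover every gene of the list that has that role.

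Downstream, 14 genes of amino acid supply listed as Atf4 targets were measured. Of these, 10 (71.4%) were below a ratio of 1, compared with 48.7% of all measured genes, and the median log2 ratio was -0.12. They included the alanine transaminase gene gpt, at -0.16 by its brighter probe set but at 0.76 by the other. As a mean over probe sets 9 genes were below 1 and 5 above. After quantile or lowess scaling 7 of the 14 were below 1, and the median was 0.02 or -0.01. At least 2-fold lower were 3 genes, against 4.09% of all measured genes, and at least 2-fold higher none, against 1.68%. The proline enzyme gene aldh18a1 read 67.4 in the morphants and 162.4 in the controls, a log2 ratio of -1.27. The neutral amino acid transporter gene slc1a4 read 52.7 and 118.4, a log2 ratio of -1.17, which was -0.35 with the floor at the 75th percentile. The gene phgdh, for the enzyme that begins serine synthesis from glycolysis, read 289.6 and 631.6, a log2 ratio of -1.12.

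The steps after phgdh showed smaller differences. The gene psat1, which encodes the next enzyme of serine synthesis, read 180.8 and 286.3, a log2 ratio of -0.66. The genes shmt2 and mthfd2, for mitochondrial enzymes of folate metabolism, were at -0.09 and 0.09. The highest of the list were slc3a2a, the heavy chain that carries several amino acid transporters to the membrane, at 0.37, and asns. The transsulfuration genes cth and cbsb, which make cysteine from methionine, were at -0.41 and 0.25.

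The list of Atf4 targets in stress signalling, which includes chac1 and atf3, had 15 measured genes with a median log2 ratio of -0.01. Above a ratio of 1 were 7 and below were 8. At least 2-fold higher after the floor was sqstm1, encoding the autophagy receptor p62, which read 105.9 and 45.1, a log2 ratio of 1.23. That value was 0.19 with the floor at the 75th percentile. The growth arrest gene gadd45aa read 62.0 and 16.1, a log2 ratio of at least 0.90, and of 1.95 without a floor. The lowest with both signals above the floor was chac1. Next among such genes, with log2 ratios well inside the spread of all genes, were stc2a, a secreted stanniocalcin, at -0.47 and herpud1, a membrane protein that helps remove misfolded protein, at -0.45. Of these stc2a was dim, at 37.5 and 51.9. The lipoprotein receptor gene vldlr read 7.6 and 44.0, so its log2 ratio was -0.40 or lower. The gene atf5b read 26.8 and 44.3, so its log2 ratio was -0.41 or lower, and it was -0.73 without a floor. The places of vldlr and atf5b in this order are not known. The gene cebpb, a partner of Atf4 in mammals, was at 0.42, and a second partner gene, cebpg, at -0.19. The gene atf5a, a close relative of Atf4, was at the floor, with signals of 35.6 and 24.6.

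Aminoacyl-tRNA synthetases, which load transfer RNAs and are Atf4 targets in mammals, made up a further list. All 17 on the array were measured. Of them 8 were higher and 9 lower, the median log2 ratio was -0.08, and none was past 2-fold. The lowest were nars1, the asparagine enzyme gene, at -0.80 and eprs1, for glutamate and proline, at -0.76. The value of nars1 was -0.21 with the floor at the 75th percentile. The highest were kars1, for lysine, at 0.26 and iars1, for isoleucine, at 0.21.

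Over both lists of Atf4 targets, leaving out the members themselves, 26 genes were measured. Of these, 17 were below and 9 above a ratio of 1, where 48.7% and 50.9% of all measured genes lay, and their median log2 ratio was -0.12. That split was 13 and 13 after quantile or lowess scaling, and 16 and 10 as a mean over probe sets. At least 2-fold lower were 3, against 4.09% of all measured genes, and at least 2-fold higher was 1, against 1.68%. With the floor at the 75th percentile 17 were measured, of which 1 was at least 2-fold lower and 0 higher. Among the listed targets with both signals above the floor, the lowest were aldh18a1, slc1a4 and phgdh, and the highest was sqstm1. The ratios of vldlr, atf5b and slc7a3a on the lower side and of gadd45aa on the higher side are bounds. Their places in this order are therefore not known. Any link of the targets' values to those of atf4b and chac1 was not tested. The values of aldh18a1, slc1a4, sqstm1 and gadd45aa depended on the floor. Next among the higher genes was the brighter eif4ebp1, at 937.3 and 583.1, a log2 ratio of 0.68 that ranged from 0.57 to 0.68 over the other settings.

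**Figure D3:**
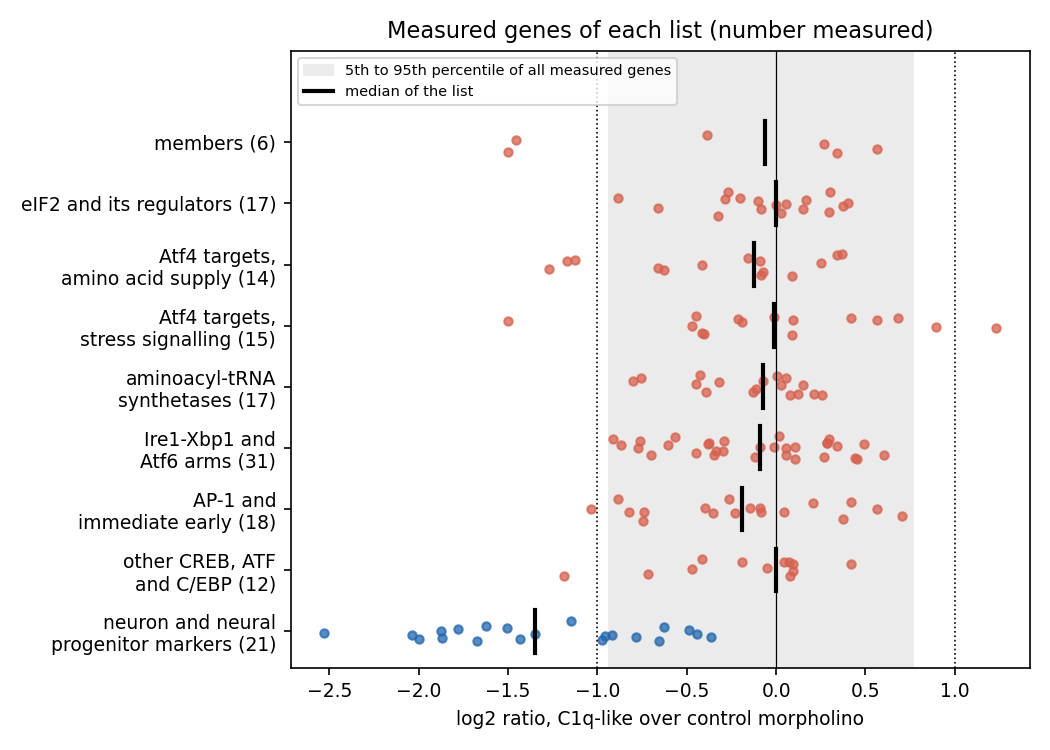
Log2 ratio of C1q-like over control morpholino for the measured genes of each list (points, spread vertically for legibility), with the median of each list as a black bar, the 5th to 95th percentile of all measured genes shaded and 2-fold dotted; the number of measured genes stands in brackets. Medians of the 7 pathway lists lie between -0.19 and 0.00, and that of the neuron and neural progenitor markers is -1.35.

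In the Ire1 and Atf6 arms of the unfolded protein response 31 genes were measured. Their median log2 ratio was -0.09, 14 were higher and 17 lower, and none was past 2-fold. The lowest with both signals above the floor was hspa5, the main chaperone of the endoplasmic reticulum, also called BiP, whose induction marks the response. It read 171.0 in the morphants and 321.5 in the controls, a log2 ratio of -0.91. The gene hsp90b1, its Hsp90 class counterpart, read 121.5 and 207.3, a log2 ratio of -0.77. The J-domain partner gene dnajb11 read 22.8 and 54.0, so its log2 ratio was -0.70 or lower, and it was -1.24 without a floor or with that at the 25th percentile, below hspa5 and past 2-fold. Over the 6 genes for chaperones of these classes and their J-domain partners, 4 were below a ratio of 1, against 48.7% of all measured genes. Their median was -0.63, and the partner genes dnajc3a and dnajc3b were above a ratio of 1, at 0.06 and 0.30.

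The lectin chaperones, which fold glycoproteins, had a like median of -0.68 over 4 genes. Of these, 3 were below a ratio of 1, against 48.7% of all measured genes, and calr3b was at 0.01, with signals of 112.3 and 111.2. Among those below, calr3a was at -0.87, with signals of 459.8 and 840.3, and canx, or calnexin, was at -0.76. Both measured probe sets of calr, or calreticulin, were lower, at -0.60 and -0.97. Genes of the translocon, the channel through which proteins enter the endoplasmic reticulum, had a median of 0.11 over 7 genes, which was between -0.05 and -0.01 under other scalings, and those of degradation from it -0.03 over 6. The highest genes of the list were ssr4, a translocon subunit, at 0.60 and sel1l, a subunit of the degradation ligase, at 0.49. Hence hspa5 and xbp1 lay on opposite sides of a ratio of 1, and both lay within the 5th to 95th percentile range of all genes. Within the brightest signal class, which holds both, hspa5 lay below the 5th percentile of -0.87. With median centring hspa5 was at -1.03, past 2-fold.

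Immediate early genes, which include the Fos and Jun partners of Atf3, had 18 measured genes, 12 below and 6 above a ratio of 1, and a median log2 ratio of -0.19. Of all measured genes 48.7% were below 1. With the floor at the 75th percentile 10 of the list were measured, 8 of them below 1, and the median was -0.57. The zinc finger gene klf6a read 98.3 and 201.7, a log2 ratio of -1.04. It was the only one past 2-fold after the floor, where 4.09% of all measured genes were at least 2-fold lower and 1.68% higher. Next was ier5l at -0.88. The gene jun was at -0.74 by its brighter probe set and at -0.29 by the other. In contrast, fosab, encoding Fos, was at 0.71, although dim, with signals of 67.4 and 41.3, and its 3 other measured probe sets gave 0.50, 0.32 and 0.23. The Fos relative fosl2 read 38.4 and 16.8, so its log2 ratio was at least 0.21, and it was 1.19 without a floor. Since the ratios of atf3 and fosl2 are lower bounds, the highest genes of this list have no settled order.

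Among 12 measured genes of other CREB, ATF and C/EBP factors, 6 were above and 6 below a ratio of 1, and the median log2 ratio was 0.00. The lowest was nfe2l3, of the family of the antioxidant regulator Nrf2, which read 48.8 and 111.1, a log2 ratio of -1.19. With the floor at the 75th percentile its value was -0.26. The Nrf2 gene nfe2l2a itself was at -0.72 or lower, with signals of 30.8 and 54.7. The C/EBP genes cebpa, cebpb, cebpd, cebpg and cebpz lay between -0.19 and 0.42. No measured gene of this list had a log2 ratio as low as that of atf4b. Since atf4b was in a set chosen on this ratio, nothing is read from that difference.

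**Figure D4:**
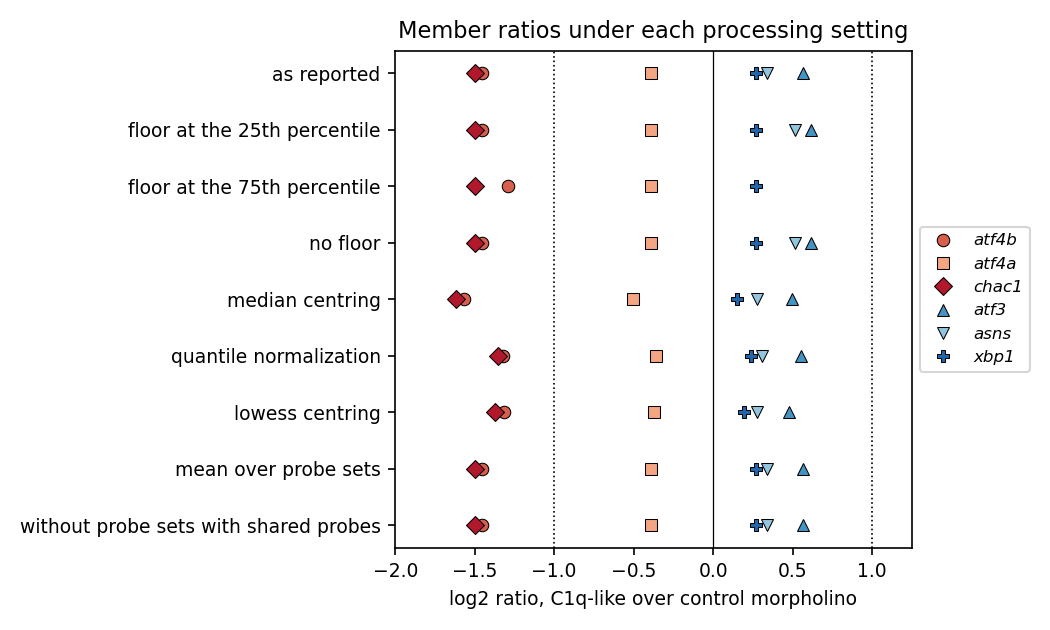
Log2 ratio of C1q-like over control morpholino for the 6 members as reported and under 8 other processing settings, with 2-fold dotted; atf3 and asns have no value with the floor at the 75th percentile, because both signals lay below it. Over the 8 settings, several of which could not change a given member, atf4b ranged from -1.57 to -1.29 and chac1 from -1.62 to -1.35.

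Each member kept its direction under every setting in which it had a value, but many settings could not change it. Every member had a single measured probe set without shared probes, so the settings on probe sets left all ratios as they were. Both signals of atf4b, atf4a, chac1 and xbp1 lay above the floor, so a lower floor or none changed nothing for these. For atf4a, chac1 and xbp1 the floor at the 75th percentile changed nothing either. Under the 8 other settings atf4b ranged from -1.57 to -1.29 and chac1 from -1.62 to -1.35, and both stayed past 2-fold. The range was -0.51 to -0.36 for atf4a and 0.15 to 0.27 for xbp1. Where they had a value, atf3 ranged from 0.48 to 0.62 and asns from 0.28 to 0.51.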

How the data were processed

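The authors deposited 1 signal intensity per probe set and array on a linear scale, made with MAS5 per the submitters' processing notes, with version and scaling target not given in the sources used here. Experiment files of the instrument, with 42 settings, differed in 2, the days of hybridization and scanning, per the file headers. Leaving out the outer 2%, mean intensity was 98.8 (morphants) and 99.4. MAS5 subtracts background, so dim signals are unreliable. The number of arrays, 1 per group, limits precision.

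Signals were floored at 33.3 and ratios taken on the log2 scale. Groups came from the sample descriptions. The 15502 probe sets comprised 10795 with 1 gene, 135 with more and 4572 without a name, and symbols of 10711 were updated by Entrez number from the RefSeq table of assembly GRCz12tu. A gene was read through its brightest probe set. The members and lists were chosen with earlier results of these data known. Named were all members, genes at least 2-fold apart, the 2 highest and 2 lowest of each list, canonical pathway genes chosen by name, and some further list genes. Canonical genes without a probe set used here (eif2ak4, ppp1r15b, ern1, atf6, sesn2) have no value. With 2 arrays no genes could be named for a like pattern. The planned reading of promoters and proteins was not made, and no sequence is shown. Alternatives were other floors (25th or 75th percentile, or none), median, quantile or lowess (span 0.3) scaling, the mean over probe sets, and leaving out probe sets with shared probes. Steps were tested on simulated data. Software was Python 3.11.15, numpy 2.4.6, pandas 2.3.3, statsmodels 0.14.6 and matplotlib 3.10.9.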

Additional observations from a re-analysis of the deposited data

How the results depend on the processing

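Under the 8 other settings the log2 ratios of the members and the medians of the 7 pathway lists moved by less than 1.5-fold from the reported values, and 2 members stayed at least 2-fold lower and 0 at least 2-fold higher. Several settings could not change the ratio of a given member, as stated above. The median of the immediate early list reached -0.57 with the floor at the 75th percentile, and medians of the other pathway lists stayed between -0.24 and 0.09. Apart from the immediate early and the Ire1 and Atf6 lists, each median took both signs or 0 across settings. Among the 5968 measured genes, those at least 2-fold higher numbered 100 and those lower 244. The higher count was 552 with the floor at the 25th percentile, 31 at the 75th, 356 with none and 63 with median centring, and the lower count was 451 and 103 with the floor at the 25th and 75th percentile and 363 with none. Of genes past 2-fold 70.9% were lower, and this share was 84.8% with median centring, 57.8% after quantile normalization and 61.7% after lowess centring. Median centring moved the median of all genes from 0.01 to -0.10, and ratios under it are lower by about that much.

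Counts past 2-fold within lists are small. With the floor at the 75th percentile there were 1 lower gene of amino acid supply in place of 3, 0 higher genes of stress signalling in place of 1, and 0 lower genes among other CREB, ATF and C/EBP factors in place of 1. With the floor at the 25th percentile or none, 2 stress signalling genes were higher. In the Ire1 and Atf6 list 1 gene, dnajb11, was lower with either of these floors, in place of 0. With median centring the 1 lower gene was a different one, hspa5. Of the immediate early genes, 2 were higher with the floor at the 25th percentile and 1 with none, in place of 0. Lower among them were 2 with the 25th percentile floor or median centring and 0 after quantile or lowess scaling, in place of 1. The causes were not tested, except that a higher floor compresses ratios by construction. No paired analysis was possible because each group has 1 array. Low signals limit atf3 and asns most.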
